A study of Homo sapiens with 9 samples.

Results

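Peaks next to the centromeric gaps and on unplaced contigs were taken from 6 lists of ChIRP-seq peaks of the lncRNA SRA and a LacZ control, on the genome build hg19. A peak was included if its chromosome name carries a contig suffix, or if it overlaps a window from 3 Mb before to 6 Mb after the start of the centromeric gap on 15 chromosomes (1, 2, 3, 5, 7, 8, 9, 10, 11, 12, 16, 17, 19, 20 and 21). This rule uses position alone and took 571 of 20698 peaks, of which 475 were in the windows and 96 on contigs. The nearest peak inside a window edge was 9.76 kb from it and the nearest outside was 16.4 kb from it. All samples were of K562, a human erythroleukemia cell line, fixed with glutaraldehyde, and the labels name no treatment, genotype change or time. In ChIRP-seq, biotinylated oligonucleotides that pair with one RNA are used to isolate fixed chromatin, whose DNA is then sequenced. SRA probes were used in 3 samples and LacZ probes, against a bacterial transcript that human cells lack, in 3 samples. Input chromatin, sequenced in 3 further samples, was not analysed here.

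Centromeres and the ribosomal DNA are among the most repeated parts of human chromosomes. Centromeres rest on long arrays of satellite repeats, often flanked by duplicated sequence, and the ribosomal genes lie in tandem copies on the short arms of the acrocentric chromosomes, where nucleoli form around them. The hg19 assembly represents the centromeres by gaps and keeps some repeats and unplaced pieces on separate contigs, so that reads from many copies can align to a few positions. The lncRNA SRA is a coactivator RNA of steroid receptors that also associates with CTCF, an architectural protein of chromatin, and with the helicase DDX5.

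The lists held 4982, 4946 and 5187 peaks for SRA and 2676, 2617 and 290 peaks for LacZ. Each peak has the authors' score, which is at least 40 in every list and was used for ranking. Read depth is unknown, and the part of depth in differences of score between lists was not tested. Peaks that share at least 1 bp were counted as overlapping. In the windows and on contigs all 206 overlapping pairs between SRA lists were identical in position, and 39 of them, or 18.9%, also in score. The same was so for all 8110 pairs elsewhere, 19.1% of which were equal in score, so the SRA lists cannot be taken as independent samples and no SD is given for them. Each test of the groups is therefore given over all 3 SRA lists and, where it was run, with the SRA lists as 1 sample, for which the smallest possible p is 0.25. The LacZ lists had 3 overlapping pairs here, and 1 was identical in position. LacZ list 3 had no peak narrower than 545 bp, whereas the narrowest was 62 bp in LacZ list 1 and 68 bp in LacZ list 2. Its counts are therefore not known to be comparable with those of the other lists.

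The contig Un_gl000220, which carries ribosomal DNA, held the region with the highest mean SRA score described here. It spans positions 126765 to 128623, and it was the one region among the 398 described here with peaks of all 3 SRA lists and of LacZ lists 1 and 2. The scores there were 291.93, 385.6 and 232.27 in SRA lists 1, 2 and 3, and 68.13 and 94.25 in LacZ lists 1 and 2. Every SRA score was above both LacZ scores, and LacZ list 3 had no peak on the contig. Among the peaks of a list outside chromosome M, this peak ranked 3, 2 and 2 in SRA lists 1, 2 and 3. It ranked 64 in LacZ list 1 and 6 in LacZ list 2. The region was thus among the strongest of LacZ list 2 as well as of the SRA lists.

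The boundaries of this region hardly differed between probe sets. The SRA peaks ran from 126766 to 128622, the peak of LacZ list 1 from 126765 to 128617, and that of LacZ list 2 from 126766 to 128623. Each LacZ peak differed from the SRA peaks by at most 1 bp at the start and 5 bp at the end over 1.86 kb. The same held for the region at 131178 to 132854, which had scores of 143.99, 220.94 and 90.88 in SRA lists 1, 2 and 3 and 48.03 in LacZ list 2. Its SRA and LacZ peaks differed by 1 bp at the start and ended at the same base.

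Other parts of the contig had peaks in SRA lists alone. The region at 122170 to 125422 had scores of 140.37, 201.39 and 180.29 in SRA lists 1, 2 and 3, and that at 128665 to 130246 had 62.9, 85.62 and 51.38. A further region at 117829 to 122148, the widest of the members with 4320 bp, was in SRA lists 1 and 2 with low scores of 41.95 and 49.62. Of the 7 regions of the contig, 6 lay in a block of 15.03 kb from 117829 to 132854, and the remaining one, at 6843 to 7633, was in SRA list 1 alone with a score of 40.69. Peaks covered 13.2, 12.7 and 8.37 kb of the block in SRA lists 1, 2 and 3, and 1.85 and 3.53 kb in LacZ lists 1 and 2. Which parts of the ribosomal repeat lie there was not analysed here.

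**Figure D1:**
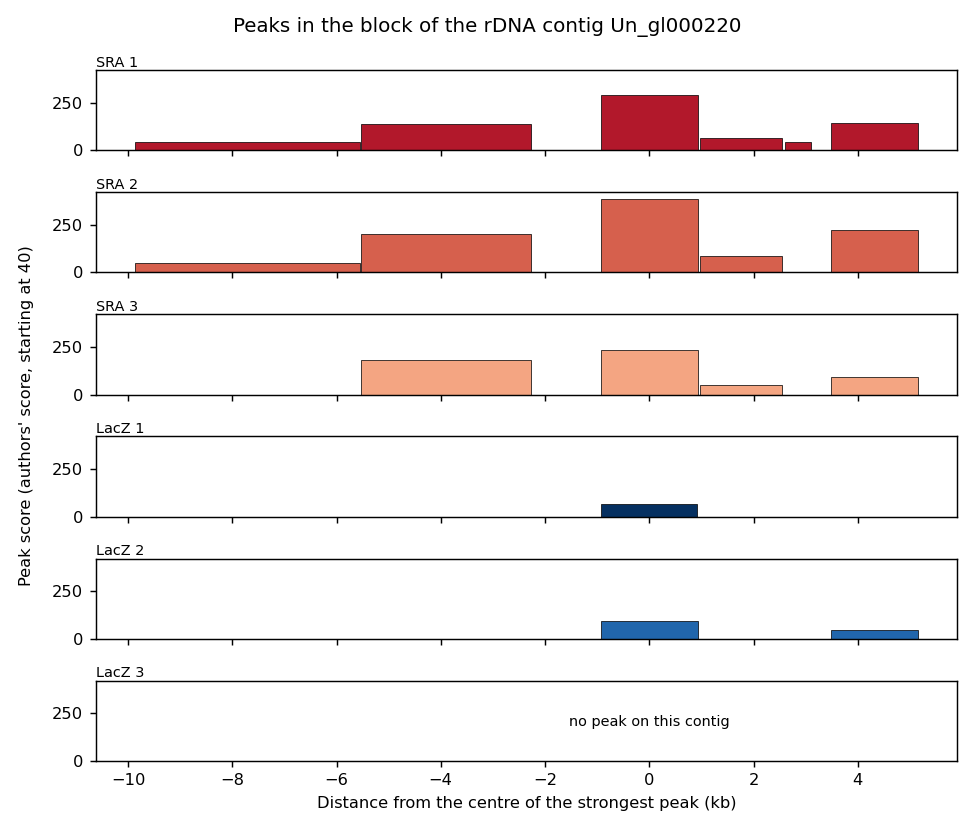
Peaks of each list in the block of contig Un_gl000220, with the distance from the centre of the strongest peak in kb on the horizontal axis and the authors' peak score on the vertical axis; each bar is a peak drawn to its width. The central peak is present in 5 of the 6 lists with scores from 68.13 to 385.6, and LacZ list 3 has no peak.

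All member peaks at which the probe sets overlapped lay on contigs. Of 22 LacZ peaks on contigs, 6 overlapped an SRA peak, or 27.3% (95% Wilson interval 13.2 to 48.2%, counting error only). Of 127 LacZ peaks in the windows, 0 overlapped one, for which the 95% Wilson interval reaches up to 2.94%. Over all LacZ peaks the share was 1.43%, which lies below the limit for the windows and below the interval for the contigs. Without Un_gl000220 it was 3 of 19 LacZ peaks on contigs, or 15.8% (5.52 to 37.6%), with 1.38% over all LacZ peaks. The share was similar in LacZ lists 1 and 2, with 3 of 10 and 3 of 12 peaks. Seen from the SRA side, 5 of 48 merged SRA regions on contigs and 0 of 209 in the windows had a LacZ peak, against 0.901% over all SRA regions. LacZ list 3 had no contig peak and gave 4 of the 127 LacZ window peaks, so the contig counts were the same without it. Neighbouring peaks on a contig are not independent, and no test of these shares was made.

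The 3 overlaps outside the ribosomal contig had scores from 43.54 to 58.47, far below the highest of that contig. On Un_gl000214 at 108616 to 108748, the scores were 47.7 and 43.54 in SRA lists 1 and 2 and 54.8 in LacZ list 1. On Un_gl000219 at 56366 to 56989, SRA list 1 had 58.47 and LacZ list 1 had 50.18. On Un_gl000225 at 22866 to 23065, SRA lists 2 and 3 had 48.99 and 48.19 and LacZ list 2 had 51.92. In 2 of these 3 regions the LacZ score was the higher one, unlike on Un_gl000220. LacZ peaks also met LacZ peaks of another list on contigs, with 4 of 22 peaks against 2 of 127 in the windows and 2.78% over all LacZ peaks. At Un_gl000224, positions 1899 to 1993, LacZ lists 1 and 2 had peaks with the same start and end and scores of 56.15 and 47.76, and the SRA lists had none. The corresponding window region lies on chromosome 1 at 118755383 to 118755615, with scores of 50.44 and 41.61 in LacZ lists 1 and 2.

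Peaks fell on 20 contigs, all of them unplaced or placed only to a chromosome. Both probe sets had peaks on 8 contigs, SRA alone on 9 and LacZ alone on 3. SRA lists 1, 2 and 3 held 30, 24 and 20 contig peaks, or 0.602, 0.485 and 0.386% of their peaks. LacZ lists 1, 2 and 3 held 10, 12 and 0, or 0.374, 0.459 and 0%. The groups overlapped, and the difference of 0.214 percentage points was within the spread of the lists (two-sided exact permutation test, p = 0.2, where 0.1 is the smallest that 3 lists against 3 allow, and p = 0.5 with the SRA lists as 1 sample). Without LacZ list 3 it was 0.0749. Among peaks of at least 545 bp, the narrowest width of LacZ list 3, it was -0.91, and among the 290 highest-scoring peaks of each list it was 1.15. Contig peaks had higher median scores than the peaks outside contigs and windows, 47.0, 49.3 and 48.6 against 43.8, 43.9 and 44.3 in SRA lists 1, 2 and 3. In LacZ lists 1 and 2 the medians were 52.5 and 53.1 against 44.2 and 44.1. Without Un_gl000220 the contig medians were still above the other peaks in these 5 lists, from 46.3 to 53.1.

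Besides Un_gl000220, only 2 contig regions were in all 3 SRA lists. One, on 11_gl000202_random at 8102 to 8272, had the same score of 52.97 in each list. The other, on 9_gl000198_random at 73468 to 73658, had scores of 47.76, 65.93 and 68.36 in SRA lists 1, 2 and 3. The LacZ lists had 3 peaks elsewhere on 9_gl000198_random and none on 11_gl000202_random. The contig 7_gl000195_random held 7 SRA peaks, 5 of them in list 1, 2 in list 2 and none in list 3, and no LacZ peak. Its regions at 119766 to 119884 and 137940 to 138305 were in SRA lists 1 and 2 with scores from 57.74 to 61.49.

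The remaining contig regions found in 2 SRA lists and in no LacZ list had scores that ranged from 40.47 to 62.29. On 19_gl000208_random at 91570 to 91695, SRA lists 1 and 3 had scores of 60.6 and 41.2, and on Un_gl000231 at 18742 to 18906 they had 62.29 and 48.19. Un_gl000214 held 3 such regions, at 30971 to 31217 (46.16 and 41.87 in SRA lists 1 and 3), at 64377 to 64504 (43.45 and 46.7 in lists 1 and 2) and at 109030 to 109156 (41.6 in lists 1 and 2). Un_gl000225 held a pair, at 81940 to 82094 (45.25 and 41.62 in lists 1 and 3) and at 84749 to 84828 (53.65 and 50.2 in lists 1 and 3). Lists 2 and 3 shared a region on Un_gl000219 at 143097 to 143263 (46.6 and 46.4) and one on Un_gl000224 at 3215 to 3571 (40.47 and 52.52). The highest score among them was 62.29, which lies between the weaker and the stronger peaks of Un_gl000220.

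Next to the centromeric gaps, the strongest SRA region was on chromosome 1 at 121484053 to 121485452, at -15.9 kb from the gap start of the rule. Its scores were 302.17, 355.26 and 198.36 in SRA lists 1, 2 and 3, and no LacZ list had a peak there. It ranked 2, 3 and 5 among the peaks outside chromosome M in these lists. On chromosome 7 a pair of regions lay 3.87 Mb after the gap start. The region at 61969202 to 61969669 had scores of 113.03, 136.48 and 78.3 in SRA lists 1, 2 and 3, and its neighbour at 61968889 to 61969099 had 75.78, 88.75 and 51.48. In both, as on chromosome 1 and in 3 regions of Un_gl000220, the score was highest in list 2 and lowest in list 3.

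**Figure D2:**
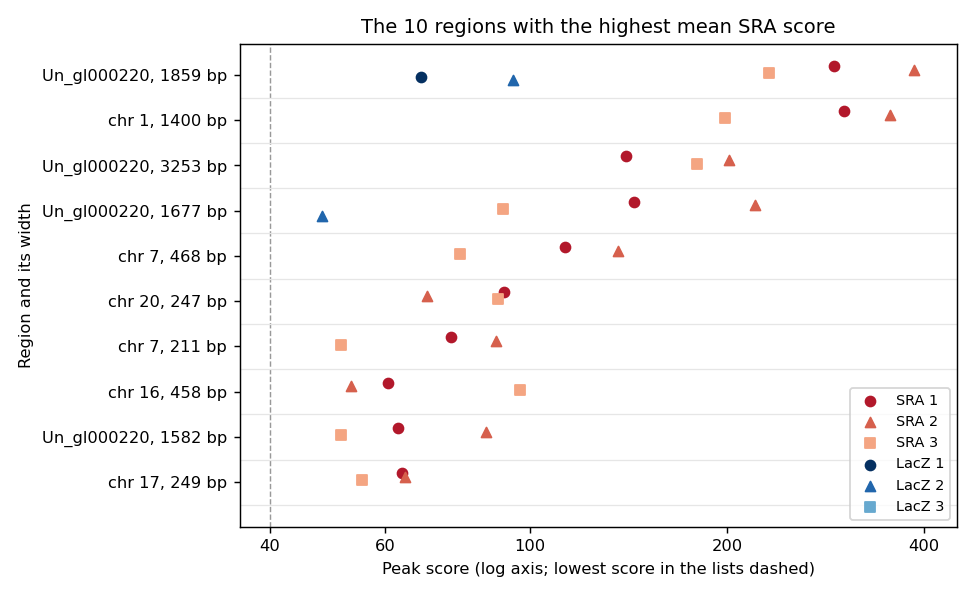
Peak score in each list (log axis, one point per list) for the 10 regions with the highest mean SRA score among those with a peak in all 3 SRA lists, named by chromosome or contig and width. LacZ points appear at 2 regions of Un_gl000220 only, at 48.03 to 94.25, and LacZ list 3 has no point.

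The remaining leading regions of the windows were on chromosomes 20, 16 and 17. On chromosome 20 at 31282997 to 31283243 the scores were 91.28, 69.66 and 89.5 in SRA lists 1, 2 and 3. On chromosome 16 at 33293813 to 33294270 they were 60.67, 53.29 and 96.57, and on chromosome 17 at 27539389 to 27539637 they were 63.83, 64.4 and 55.41. In these 3 regions no single list was the highest throughout. The strongest LacZ peak in a window was that of list 1 on chromosome 1 at 120766487 to 120766577, with a score of 82.3 and a width of 91 bp, and it met no other peak. The strongest of the 4 members of LacZ list 3 was on chromosome 8 at 48434591 to 48435512, with a score of 49.13.

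A score of at least 100 was reached by 13 of the 422 SRA members, or 3.08%, against 0.423% of all SRA peaks. These were 8 peaks on Un_gl000220, 3 at the chromosome 1 region and 2 at the chromosome 7 region, so the higher share rested on 5 regions. None of the 149 LacZ members reached it, which allows a share of up to 2.01%, against 0.161% of all LacZ peaks. At least 1000 bp were covered by 20 SRA members, or 4.74%, against 1.98% of all SRA peaks, and by 4 LacZ members, or 2.68%, against 3.6% of all LacZ peaks. Of the wide SRA members, 14 were on contigs, all of them on Un_gl000220, as were 3 of the 4 wide LacZ members. In the windows 6 of 348 SRA peaks were that wide, or 1.72%, so the higher share rested on this contig. The bulk of the members was ordinary in score, with medians of 44.2, 45.1 and 45.4 in SRA lists 1, 2 and 3 and 45.0, 45.1 and 45.0 in LacZ lists 1, 2 and 3. Median member scores exceeded those of the other peaks by 0.92 on average in the SRA lists and by 0.66 ± 0.49 (SD, n = 3) in the LacZ lists (two-sided exact permutation test, p = 0.5, and p = 0.75 with the SRA lists as 1 sample). Without LacZ list 3 the SRA excess over LacZ turned from 0.26 to -0.02, and it was 4.64 among the 290 highest-scoring peaks of each list and 26.4 among peaks of at least 545 bp. Median width exceeded that of the other peaks by 3, 6 and 6 bp in SRA lists 1, 2 and 3 and by -10, 0.5 and -180.5 bp in LacZ lists 1, 2 and 3 (two-sided exact permutation test, p = 0.1, the smallest possible, and p = 0.5 with the SRA lists as 1 sample). The difference between groups of 68.3 bp was 9.75 bp without LacZ list 3.

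The share of all peaks that lay in the windows and on contigs overlapped between the probe sets. They held 145, 149 and 128 peaks of SRA lists 1, 2 and 3, or 2.91, 3.01 and 2.47%. They held 73, 72 and 4 peaks of LacZ lists 1, 2 and 3, or 2.73, 2.75 and 1.38%. SRA list 3 lay below LacZ lists 1 and 2, and the mean of 2.80% for SRA against 2.29 ± 0.79% (SD, n = 3) for LacZ was within the spread (two-sided exact permutation test, p = 0.4, and p = 0.5 with the SRA lists as 1 sample). The difference of 0.51 percentage points became 0.06 without LacZ list 3 and 0.05 with either narrower or wider windows. Among the 290 highest-scoring peaks of each list it was 2.53, with means of 6.09% for SRA and 3.56% for LacZ (two-sided exact permutation test, p = 0.1, the smallest possible). Members made up 4.08, 4.15 and 2.80% of the bases covered in SRA lists 1, 2 and 3 and 2.77, 3.17 and 0.98% in LacZ lists 1, 2 and 3 (two-sided exact permutation test, p = 0.2, and p = 0.5 with the SRA lists as 1 sample). The difference of 1.37 percentage points was 0.705 without LacZ list 3, 0.542 in the windows only, 0.111 among peaks of at least 545 bp and 4.13 among the 290 highest-scoring peaks of each list. Un_gl000220 alone gave 33.2, 29.6 and 26.7% of the member bases in SRA lists 1, 2 and 3, and 13.6 and 23.7% in LacZ lists 1 and 2. Without this contig the members' mean share of covered bases was 2.60% for SRA and 1.94 ± 0.83% (SD, n = 3) for LacZ (p = 0.4, same exact test, and p = 0.5 with the SRA lists as 1 sample). This difference of 0.656 percentage points was 0.176 against LacZ lists 1 and 2.

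Overlapping SRA peaks gave 257 member regions, of which 124 were in at least 2 lists, or 48.2% (95% Wilson interval 42.2 to 54.3%, counting error only), against 53.1% of all SRA regions. All 3 lists shared 41 of them, or 15.95% (11.98 to 20.9%), against 21.5%, which lies above this interval. With a peak in at least 2 SRA lists and no LacZ peak, 120 regions remained, or 46.7% (40.7 to 52.8%), against 52.6%. Of these 120, 16 were on contigs, 26 in the window of chromosome 20, 14 in that of chromosome 17 and 12 in that of chromosome 8. The count was 62, 61 and 75 without SRA list 1, 2 or 3.

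The windows differed in how many peaks they held. Chromosome 20, the contigs and chromosome 17 led the SRA lists with 81, 74 and 40 peaks, which gave 45, 48 and 23 merged SRA regions. Chromosome 17, the contigs and chromosome 8 led the LacZ lists with 24, 22 and 16 peaks. The window of chromosome 3 held 1 peak in all, of SRA list 2, and that of chromosome 9 held 4. All SRA shares exceeded all LacZ shares for 2 of the 16 units (15 windows and the contigs as one), chromosomes 7 and 20, and all were below them for 1, chromosome 1. Across the genome this was so for 11.4% of 334 tiles of 9 Mb in the upward direction and 7.19% in the downward direction, so these counts were close to the background. On chromosome 7 the window held 9, 12 and 8 peaks of SRA lists 1, 2 and 3 and 4, 3 and 0 of the LacZ lists, and the shares of SRA list 3 (0.154%) and LacZ list 1 (0.149%) nearly met. The ratio of the mean shares was 2.19, and 1.46 without LacZ list 3. On chromosome 17 it held 12, 13 and 15 peaks of SRA lists 1, 2 and 3 and 14, 10 and 0 of LacZ lists 1, 2 and 3. There the SRA shares of 0.241 to 0.289% were below those of LacZ lists 1 and 2, 0.523 and 0.382%, but above that of LacZ list 3.

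**Figure D3:**
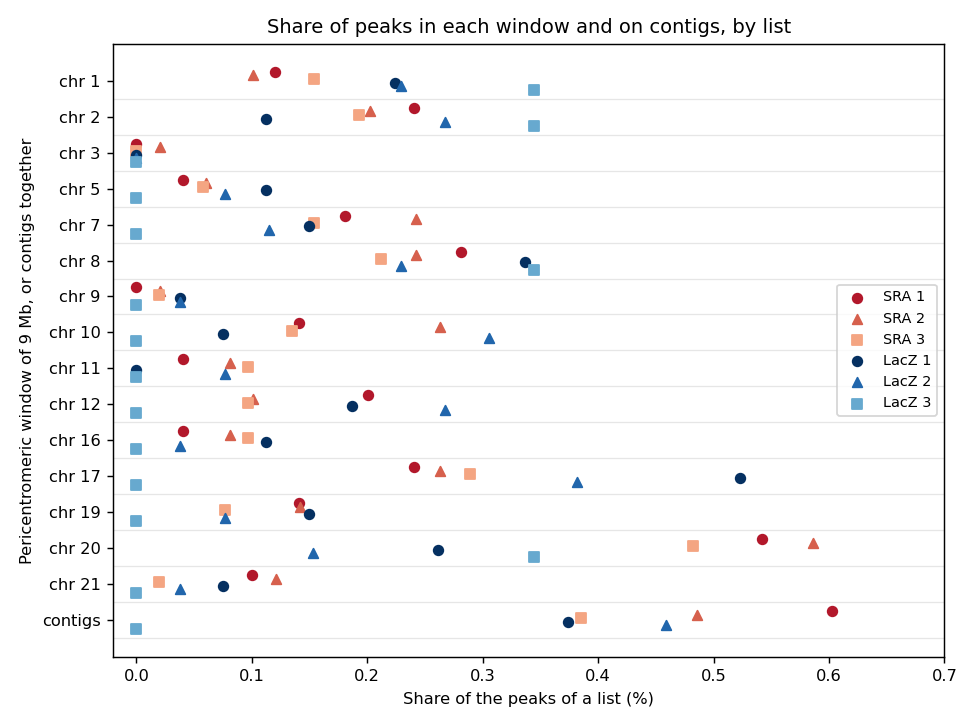
Share of the peaks of each list, in percent, that lies in each window of 9 Mb or on contigs as one unit; each point is one list and there are no error bars. On chromosome 20 the SRA points sit at 0.482 to 0.586% and the LacZ points at 0.153 to 0.345%, and in most other windows the groups overlap.

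The window of chromosome 20 held more peaks than any other window, mostly of SRA. It held 27, 29 and 25 peaks of SRA lists 1, 2 and 3, or 0.542, 0.586 and 0.482%, and 7, 4 and 1 peaks of LacZ lists 1, 2 and 3, or 0.262, 0.153 and 0.345%. The SRA mean of 0.537% was 2.12 times the LacZ mean of 0.253 ± 0.096% (SD, n = 3). The window was singled out for its number of SRA peaks and for groups that do not overlap, as in 11.4% of the tiles, so it has no test. Over the rest of chromosome 20 the means were 2.02% and 1.79 ± 0.43%, a ratio of 1.13. None of the 45 merged SRA regions of this window met a LacZ peak, against 0.901% of all SRA regions. The same was so for all 209 merged SRA regions of the windows, so it is not particular to chromosome 20. The difference of 0.28 percentage points was 0.0805 with windows from 5 Mb before to 8 Mb after the gap start. It turned to -0.11 with windows from 1 Mb before to 4 Mb after it, and to -1.04 among peaks of at least 545 bp.

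Most SRA peaks of this window lay in its far end, and that division was made after the positions were seen, so it has no test. From 30.4 to 32.4 Mb, 21, 24 and 21 peaks of SRA lists 1, 2 and 3 stood against 3, 2 and 0 of LacZ lists 1, 2 and 3. From 23.4 to 30.4 Mb the counts were 6, 5 and 4 against 4, 2 and 1, and in the 2 Mb just outside the window they were 7, 3 and 9 against 8, 3 and 2. Between 31060738 and 31352920 alone, 10 regions held 6, 8 and 6 SRA peaks and no LacZ peak. Closer to the gap, at 29600898 to 29653774, the order was the opposite, with 1, 0 and 1 SRA peaks and 2, 1 and 1 LacZ peaks. The proximal part of the long arm is gene-rich and carries genes such as DNMT3B, a DNA methyltransferase. Peaks were not assigned to genes here, and DNA copy number in K562 was not tested.

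**Figure D4:**
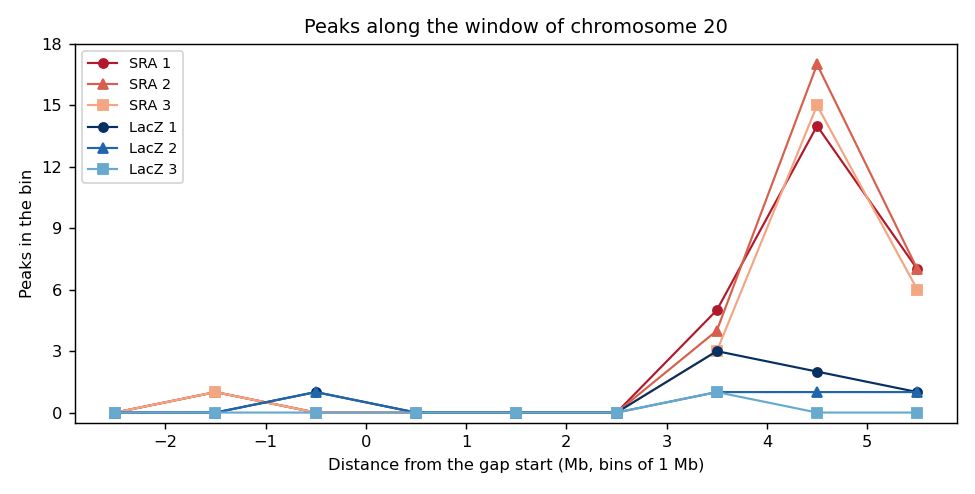
Number of peaks of each list per 1 Mb along the window of chromosome 20, by distance from the gap start in Mb. From 4 to 5 Mb the SRA lists hold 14, 17 and 15 peaks and the LacZ lists 2, 1 and 0.

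On chromosome 1 the order was reversed. The window held 6, 5 and 8 peaks of SRA lists 1, 2 and 3, or 0.120, 0.101 and 0.154%, and 6, 6 and 1 peaks of LacZ lists 1, 2 and 3, or 0.224, 0.229 and 0.345%. This window is described because its groups do not overlap, as in 7.19% of the tiles, so it has no test. The SRA share was also the lower one over the rest of the chromosome, with means of 12.8% for SRA and 15.6 ± 2.9% (SD, n = 3) for LacZ. Inside the window the LacZ peaks were gathered between 120548734 and 120766577, where 14 regions held 3, 5 and 1 LacZ peaks and 1, 2 and 2 SRA peaks.

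Window peaks were also joined over 100 kb, and 34 segments held at least 3 regions. Of these, 27 held peaks of both probe sets, 6 of SRA alone and 1 of LacZ alone. After that on chromosome 20, the segments with the most SRA peaks and no LacZ peak were on chromosome 16 at 33237960 to 33294270, with 2, 3 and 4 peaks in SRA lists 1, 2 and 3, and on chromosome 2 at 91676561 to 91846773, with 3 in each. The one segment with LacZ peaks alone was also on chromosome 16, at 33865178 to 33901796, with 3 and 1 peaks in LacZ lists 1 and 2 and scores of up to 45.85. Both segments of chromosome 16 lay before the gap, and no later peak of either set lay in this window. These segments were described after their positions were seen and have no test, and no share over the whole genome was computed for them.

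An assembly gap holds no sequence to which reads could align, so a lack of peaks inside a gap is not a result. The rule gives the start of each gap but not its length. In the first 3 Mb after the gap starts lay 1 peak, of SRA list 3 on chromosome 2 at the very edge. Each window had a stretch free of peaks in all lists, from 3.09 Mb on chromosome 17 to 8.63 Mb on chromosome 3, with a median of 4.49 Mb. These stretches were measured inside the windows only, and they are not all gap. That of chromosome 3 began at 87865760, before the gap start at 90.5 Mb, and was cut by the window end. In the SRA lists 40.9, 42.4 and 40.7% of the window peaks lay before the gap start, against 55.6, 50 and 25% in LacZ lists 1, 2 and 3, the last over 4 peaks. Within 0.5 Mb before the gap start or from 3 to 3.5 Mb after it, there were 15, 17 and 10 peaks of SRA lists 1, 2 and 3 and 8, 13 and 1 of LacZ lists 1, 2 and 3. Most window peaks of every list thus lay outside these edges.

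**Figure D5:**
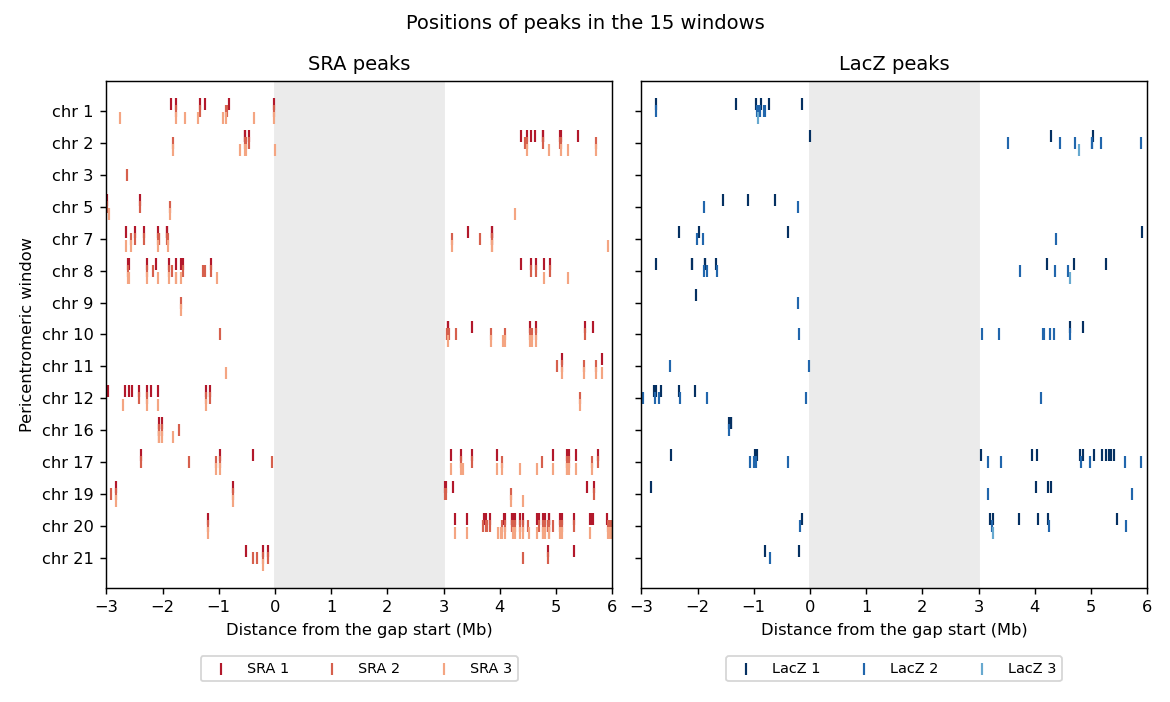
Position of each peak in the 15 windows by its distance from the gap start in Mb, with SRA lists on the left and LacZ lists on the right; each mark is one peak and the grey band is the first 3 Mb after the gap start. The band starts with the assembly gap, to which no reads can align, and the densest row is the far end of chromosome 20 in the SRA lists.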

How the data were processed

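Reads of 50 bp from 3 SRA and 3 LacZ ChIRP samples were sequenced from one end, and the authors' positions are on hg19. The submitters' processing notes name MACS, CASAVA 1.8.2 and deepTools. The aligner, the MACS version, the control of each list and any pooling are not given in the sources used here. Each deposited list gives start, end and score of its peaks. The column header of this deposited score reads −log10 p-value, but the lowest value of 40 would follow from 10 times −log10 at 0.0001, so it served for ranking only.

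Starts were converted to count from 1, and peaks sharing at least 1 bp were merged. Shares per list were compared by two-sided exact permutation tests over lists. Regions were named by rule: contig regions in 2 or more lists, the 10 highest mean SRA scores, regions with both probe sets or 2 LacZ lists, the 3 fullest units of each group, and the highest peak of each LacZ list. The members, lists and rules were chosen with earlier results of these data known. The methods speak of biological triplicates, but p-values measure only the spread between lists. Read depth is unknown and intervals reflect counting error alone. Alternatives were other windows, windows or contigs alone, limits on score, width and list size, joined peaks, other overlap rules, lists left out, SRA lists as 1 sample, and pairing by number. Merging and overlap were tested on simulated lists. Sequences and genes under the peaks were not analysed here. The software was Python 3.11.15 with numpy 2.4.6, pandas 2.3.3, matplotlib 3.10.9 and scipy 1.17.1.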

Additional observations from a re-analysis of the deposited data

How the results depend on the processing

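Of 161 alternative values for 11 results, 5 reversed. For the differences between groups, the other alternatives kept the direction but not always the size, and 24 counts or shares moved. The alternatives for chromosome 20 and for contigs were chosen after seeing the data. With 3 lists against 3 no exact permutation test could pass 0.05. The SRA excess in median score turned to -0.275 when peaks under the median score of a list were dropped, and ranged from -0.0158 to 0.515 with one list left out, the lowest without LacZ list 3. It was 1.55 with narrower windows, 4.64 with 290 peaks per list and 26.4 at 545 bp or more. The chromosome 20 difference turned to -0.111 with windows from 1 Mb before to 4 Mb after the gap start. Among peaks of at least 545 bp it was -1.04 and the contig difference was -0.914. The share of covered bases fell from a difference of 1.37 points to 0.567 with wider windows, 0.542 in windows only and 0.111 at 545 bp or more, and the share of peaks from 0.511 to 0.05 with narrower or wider windows. With the 290 highest-scoring peaks of each list the differences were larger, at 2.53 points for peaks (exact permutation p = 0.1), 4.13 for bases and 1.15 for contigs. With one list left out, the differences ranged from 0.0573 to 0.743 points for peaks, 0.705 to 1.81 for bases, 0.0749 to 0.304 for contigs and 9.75 to 100.2 bp for width, each lowest without LacZ list 3. The cause was not tested.

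The 120 regions in 2 or more SRA lists without a LacZ peak became 39 with the narrower windows, 16 on contigs only, 61 at or above the median score, 14 with 290 peaks per list, 7 at 545 bp or more, 39 if all 3 SRA lists were required and 252 if any list sufficed. They ranged from 61 to 122 with one list left out. Member SRA regions met by LacZ (1.95%) became 4.85% with narrower windows, 0% in windows only, 10.4% on contigs only and 21.4% at 545 bp or more. Member LacZ peaks met by SRA (4.03%) became 9.38, 0, 27.3 and 44.4% in the same order. On contigs, the 27.3% became 100% at 545 bp or more, over 4 of 4 peaks of which 3 were on Un_gl000220, and 18.2%, or 2 of 11, with 290 peaks per list. Member LacZ peaks met by another LacZ list (4.03%) became 1.57% in windows only, 18.2% on contigs only and 22.2% at 545 bp or more, and ranged from 0 to 4.14% with one list left out, with 0% without LacZ list 1 or 2, whose peaks met each other.

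Replicate numbers were shared by the groups, but same-numbered lists correlated by 0.089, 0.045 and 0.22 in their deviations, not all over 0.1, so the numbers were not taken to pair the samples. A replicate block cannot change a difference of means over 3 pairs, so the differences were again 0.511 points for the share of peaks, 1.37 for bases, 0.284 for chromosome 20, 0.214 for contigs, 68.3 bp for width and 0.262 for score. With the block the exact permutation p was 0.75 for score and 0.25, the smallest possible, for peaks, bases, contigs and width, against 0.1 without it for width. No value exists for the score and width differences on contigs only, because LacZ list 3 has no contig peak. Unknown read depth limits all comparisons of scores and counts between lists.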
